A study of Mus musculus with 3 samples.

Results

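The genes described here are 7 genes of the complement system: *C1qa*, *C1qb*, *C1qc*, *C3*, *C4b*, *C3ar1* and *C5ar1*. They were chosen by name and followed through every class of testicular cells, and 7 of 7 were in all 3 count tables, of 36593 genes in all. Single testicular cells of C57BL/6 mice were captured in droplets with a 3′ kit, and each group took cells from 3 mice. The tables hold each group as 1 library in which the mice are not told apart, so that there is no replicate. The Tomato-negative library came from *Ddx4-creER; R26tdTomato* mice aged 8 weeks, which had been treated with tamoxifen. The drug switches on a red protein in their germ cells, and the Tomato+ cells were then sorted away. The cKO library came from *Amh-cre; Scf fl/fl* mice aged 6 weeks, in which Cre acts in Sertoli cells and removes stem cell factor (the gene *Kitl*) there. The CT library came from *Scf fl/fl* mice aged 6 weeks that carry the same floxed alleles without Cre. Both the cKO and CT cells had been depleted of haploid cells by flow cytometry, and the study describes no tamoxifen treatment of these mice. The study's flow cytometry used CD45 and Ter119 antibodies, which mark blood cells, but the sources used here do not say whether these cells were gated out before capture, so the numbers of macrophages are not compared between libraries.

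Complement is a cascade of proteins that tags particles and dying cells for removal. The classical route starts when C1q, a bundle built from A, B and C chains, binds its target and brings on the proteases C1r and C1s, which cut C4 and then C2. Their products cut C3, the protein on which all routes converge, and small fragments of C3 and of C5 call in leukocytes through the receptors C3aR and C5aR. Macrophages are a known source of C1q in many tissues, and fibroblasts are a known source of early cascade components. In the testis, macrophages sit in the interstitium and on the tubule wall, outside the barrier that encloses meiotic and haploid germ cells.

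The C1q chains lie next to each other on the minus strand of chromosome 4 (GRCm38, gene spans from the GENCODE annotation): *C1qb* at chr4:136880129-136886187, *C1qc* at chr4:136889804-136893065 and *C1qa* at chr4:136895917-136898803. *C4b* lies at chr17:34728380-34743882 and *C3* at chr17:57203970-57228136. The receptor genes are *C3ar1* at chr6:122847138-122856161 and *C5ar1* at chr7:16246743-16259540, all on the minus strand. RefSeq gave the 250 bases before the start of 5 of the 7 genes (GRCm38.p6), and *C1qa* and *C4b* had no entry. Below are the windows of 3 genes that the macrophage-like cells held and of *C3*, printed 5′ to 3′ along the gene. In the cells within the limits given below, most somatic counts of *C3* lay in the stroma. Capitals mark ACTTCCT, a core that factors of the ETS family bind, or TTGCNNAA, a form of the C/EBP site. Both motifs were chosen after the sequences had been seen and were sought on both strands, and they do not overlap each other in any window.
C1qb, chr4:136886201-136886450, minus strand: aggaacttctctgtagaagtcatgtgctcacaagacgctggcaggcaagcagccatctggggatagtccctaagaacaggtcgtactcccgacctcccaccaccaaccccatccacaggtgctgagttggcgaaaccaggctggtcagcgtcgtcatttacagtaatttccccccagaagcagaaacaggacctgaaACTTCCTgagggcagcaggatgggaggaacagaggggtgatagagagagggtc
C1qc, chr4:136892915-136893164, minus strand: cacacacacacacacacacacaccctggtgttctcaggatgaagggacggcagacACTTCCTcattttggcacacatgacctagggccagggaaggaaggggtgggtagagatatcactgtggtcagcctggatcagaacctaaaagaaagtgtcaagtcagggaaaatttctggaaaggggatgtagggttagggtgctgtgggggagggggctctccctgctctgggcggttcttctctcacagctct
C5ar1, chr7:16259339-16259588, minus strand: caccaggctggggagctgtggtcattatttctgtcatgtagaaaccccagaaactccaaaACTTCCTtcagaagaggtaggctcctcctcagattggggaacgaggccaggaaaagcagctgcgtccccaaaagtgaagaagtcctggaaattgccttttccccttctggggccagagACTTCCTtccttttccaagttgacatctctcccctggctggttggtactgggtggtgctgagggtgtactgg
C3, chr17:57228137-57228386, minus strand: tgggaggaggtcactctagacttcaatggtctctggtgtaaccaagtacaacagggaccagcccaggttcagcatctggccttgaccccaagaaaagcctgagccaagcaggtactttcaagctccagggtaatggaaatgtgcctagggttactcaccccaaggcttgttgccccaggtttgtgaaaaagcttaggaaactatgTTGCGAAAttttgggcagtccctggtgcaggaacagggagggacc

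The ETS core was found once in the *C1qb* window, 53 to 47 bases before the start, and once in the *C1qc* window, 195 to 189 bases before it. The *C5ar1* window held it at 190 to 184 and at 72 to 66 bases before the start. The *C3* window held no ETS core but 1 match to the C/EBP letters, TTGCGAAA, 45 to 38 bases before the start, and the *C3ar1* window held neither. Of 32851 mouse promoter windows of the same length, 7.69% held the ETS core and 9.56% the C/EBP letters. The RefSeq starts of *C1qc* and *C5ar1* lie inside the GENCODE spans given above, so that most of the window of each gene, and both *C5ar1* matches, lie within the span. These matches describe letters only.

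A cell was used if it had between 200 and 3500 genes detected and no more than 10% of its counts from mitochondrial genes. This left 2159 Tomato-negative, 4545 cKO and 3637 CT cells with medians of 5515, 5359 and 4599 UMIs (transcript molecules). The limit of 3500 genes removed 4075, 2493 and 2487 cells, many of them deeply read germ cells that come back near the end. The full tables held 195380762, 68602272 and 90453018 UMIs. Cell barcodes were shared by 13 cells between the Tomato-negative and cKO libraries, by 9 between Tomato-negative and CT and by 15 between cKO and CT. Classes were set from marker genes with all complement genes left out of the clustering, and a class is called "-like" for that reason. A level is the summed UMIs of a gene scaled to counts per 1e6 UMIs of the class in that library (CPM), with an exact 95% Poisson interval in parentheses. Intervals of shares of cells are Clopper-Pearson (exact) and those of ratios of levels are exact conditional binomial, and they cover counting error only, since each group has 1 library. The kit reads 1 end of each transcript, so levels are not divided by gene length. The targeted *Kitl* could not be checked in Sertoli-like cells, of which the limits left 10 in cKO (2 counts) and 3 in CT (0 counts). In Tcf21 stromal-like cells, where the Cre is not known to act, *Kitl* stood at 295 CPM in the Tomato-negative, 329 in the cKO and 321 in the CT library.

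Macrophage-like cells numbered 134 in the Tomato-negative, 182 in the cKO and 98 in the CT library, with medians of 2716, 2852.5 and 2551 UMIs. They held 7, 7 and 6 of 8 macrophage markers in at least 10% of cells. The 3 germ cell markers, none of them at 0, summed in these cells to 198 CPM in the Tomato-negative, 36.8 in the cKO and 190 CPM in the CT library, against 7931, 2687 and 2663 CPM in germ cells, and their part in the levels that follow was not tested. Immune cells were clustered without integration of the libraries, and the 3 libraries filled different clusters of this class. Of the Tomato-negative cells, 127 formed a cluster led by *Ccl3* and *Mmp13*, and 165 of the cKO cells formed another led by *Col14a1* and *Rrad*. In the CT library 89 cells lay, with 15 cKO cells, in a cluster led by *Cdc20* and *Knl1*. None of the 8 markers was among the 10 leading genes of these clusters. The relative marker score was higher for granulocytes and mast cells (0.451) than for macrophages (0.262) in the Tomato-negative cluster and about level for B cells (0.329) and macrophages (0.327) in the CT one, but fewer than 3 markers of those other cells were seen in 10% of the cells. Another class of 51 cKO cells, with 6 Tomato-negative and 2 CT cells beside it, was named Folr2 macrophage-like after *Folr2* (1017 CPM) and *Mrc1* (1774 CPM). In these cells *Cd74*, a chain that escorts MHC class II, stood at 596 CPM, against 29188, 27182 and 26408 CPM in the Tomato-negative, cKO and CT macrophage-like cells.

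The C1q chains were carried by the macrophage-like cells. *C1qa*, the A chain, stood at 2901 CPM (2727 to 3082) in the Tomato-negative, 6556 (6342 to 6774) in the cKO and 5617 (5332 to 5914) in the CT library. *C1qb*, the B chain, stood at 3254 (3070 to 3446), 5662 (5464 to 5865) and 5281 CPM (5004 to 5569) in the same order. *C1qc*, the C chain, stood at 1537 (1411 to 1670), 3067 (2922 to 3218) and 3261 CPM (3045 to 3489). All 3 chains were thus lower in the Tomato-negative macrophage-like cells than in the cKO or CT ones, while the cKO and CT levels lay close together. With the limit raised to 7500 genes, 126 Tomato-negative immune cells stayed unnamed, by the rule that a cluster far shallower than its library with no marker among its leading genes gets no name. These cells stood at 2713 CPM of *C1qa*, 3018 of *C1qb* and 1446 of *C1qc*, while the 6 that kept the macrophage name stood at 4243, 5595 and 2029 CPM, of which the *C1qb* value was no lower than the 5574 CPM of cKO and 5522 of CT.

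The chains were found together in nearly every cell. All 3 were seen in 93.3% of the Tomato-negative, 100% of the cKO and 94.9% of the CT macrophage-like cells, and in 100% of the 51 Folr2 macrophage-like cells of cKO. A median macrophage-like cell held 7 *C1qa* UMIs in the Tomato-negative, 18 in the cKO and 14 in the CT library, and the highest cells held 21, 74 and 36. The 10% of cells with the highest counts gave 21.1%, 20.5% and 18.9% of the *C1qa* counts, so the level was spread over the class. The chains also kept similar proportions. *C1qb* made up 42.3% of the C1q counts in the Tomato-negative (40.5 to 44.2), 37.0% in the cKO (36.0 to 38.1) and 37.3% in the CT cells (35.7 to 38.9), and *C1qc* made up 19.98%, 20.07% and 23.0%.

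The Folr2 macrophage-like cells of cKO had the highest C1q levels of any class with at least 30 cells: *C1qa* at 7415 CPM (7092 to 7748), *C1qb* at 6621 (6317 to 6936) and *C1qc* at 4493 (4243 to 4754). A median cell of this class held 37 *C1qa*, 36 *C1qb* and 21 *C1qc* UMIs, at a median depth of 5324 UMIs. The 6 such cells of the Tomato-negative library had medians of 36.5, 35 and 20 UMIs, and the 2 of CT 25.5, 27 and 21.5. With 6 and 2 cells no comparison was made in this class.

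**Figure D1:**
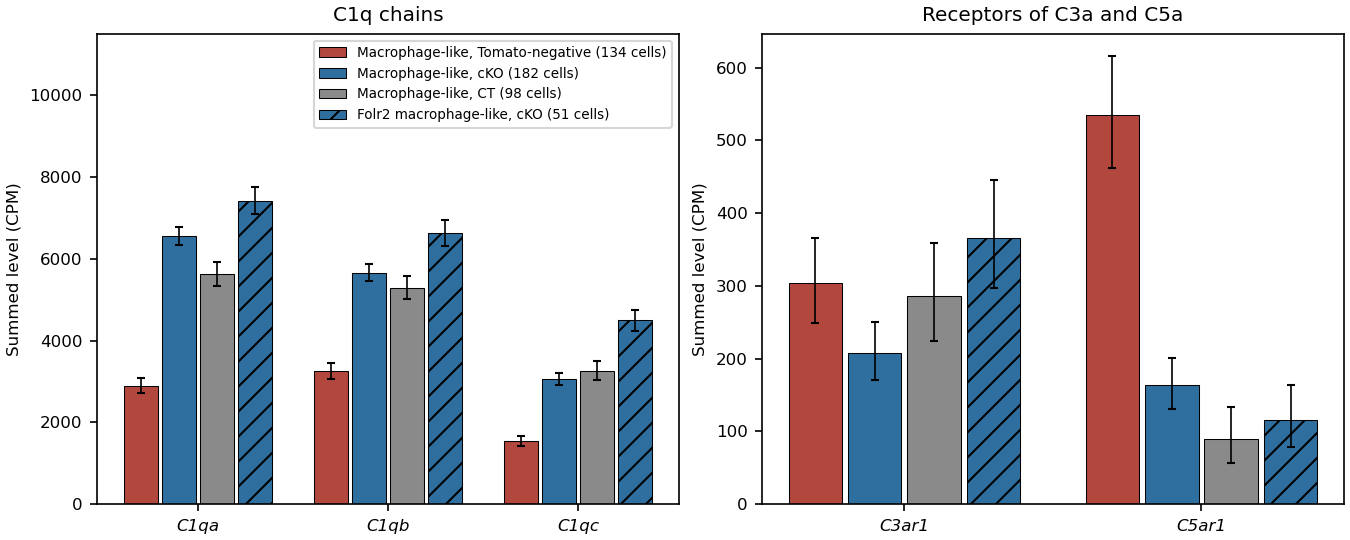
Levels of the C1q chains (left) and of the receptors *C3ar1* and *C5ar1* (right) in CPM of summed UMIs, on linear axes that start at 0. Bars are macrophage-like cells of the Tomato-negative (134 cells), cKO (182 cells) and CT (98 cells) libraries and, hatched, Folr2 macrophage-like cells of cKO (51 cells), and error bars are exact 95% Poisson intervals for counting error. The Tomato-negative bars are the lowest for each C1q chain and the highest for *C5ar1*, at 534 CPM.

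Other immune cells differed in C1q. In the 31 T and NK-like cells of cKO, 35 *C1qa*, 23 *C1qb* and 11 *C1qc* UMIs all lay in 1 cell, and 30 cells had none. The 11 dendritic-like cells of cKO held 0 *C1qa*, 0 *C1qb* and 1 *C1qc* UMI at a median depth of 8126 UMIs. With the limit raised to 7500 genes the dendritic-like class was larger, and its 14 cKO cells held 141 *C1qa* counts (1282 CPM) and its 13 CT cells 259 (5015 CPM), so the low C1q holds only for the class as drawn here. A shallow cluster with 39 CT cells, at a median of 704 UMIs, was led by germ cell genes such as *Tnp2* and stayed unnamed, yet had *C1qa* at 6538 CPM (5670 to 7502), *C1qb* at 4155 (3469 to 4937) and *C1qc* at 2867 (2302 to 3528), against 5617, 5281 and 3261 CPM in the named CT macrophage-like cells. Another unnamed cluster, led by *Dcn* and *Cyp26b1*, had 21 cKO cells with *C1qa* at 1921 CPM (1713 to 2147), and 20 of the 26 unnamed immune cells of cKO were called doublets.

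Outside the immune cells the C1q counts were few within the limit of 3500 genes. The Tcf21 stromal-like cells held 0 C1q counts in the Tomato-negative, 21 in the cKO and 6 in the CT library. *C1qa* was seen in 0 of 358 Sertoli-like cells of the Tomato-negative library, which allows a share of cells with a UMI of up to 0.838% at 3 counts, in 0.459% of 1524 Tcf21 stromal-like cells of cKO and in 1.90% of 630 myoid-like cells of CT (0.988 to 3.30). In germ cells, taken as the background class, *C1qa* was seen in 0.0954% of the Tomato-negative, 0.656% of the cKO and 1.74% of the CT cells, at median depths of 6043, 3125 and 4528.5 UMIs. The somatic shares given here lay at or near those of germ cells in the same library and are read as background. This held only within the limit. With the limit raised to 7500 genes, *C1qa* stood in myoid-like cells at 14.6 CPM in the Tomato-negative, 20.4 in the cKO and 28.2 in the CT library, against 0.106, 0.969 and 2.78 CPM in germ cells, and 600 Sertoli-like cells of the Tomato-negative library held 31 counts (5.18 CPM). The germ level of *C1qa* within the limit of 3500 genes was highest in CT, at 0.172 CPM in the Tomato-negative, 2.44 in the cKO and 7.05 CPM (5.62 to 8.73) in the CT library.

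*C3ar1*, the receptor of the C3a fragment, followed the macrophages too. It stood at 303 CPM (249 to 366) in the Tomato-negative, 208 (171 to 250) in the cKO and 286 CPM (225 to 359) in the CT macrophage-like cells. It was seen in 50.7%, 36.3% and 53.1% of these cells, against 0.0954%, 0.219% and 0.0370% of germ cells. The Folr2 macrophage-like cells of cKO had it at 365 CPM (296 to 445) and in 82.4% of cells (69.1 to 91.6), at the greater depth given above. After thinning to 1000 UMIs per cell the shares were 27.1%, 15.7% and 30.7% in the macrophage-like cells and 42.0% in the Folr2 class.

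*C5ar1*, the receptor of the C5a fragment, differed more between the libraries in macrophage-like cells than the C1q chains and *C3ar1* did. It stood at 534 CPM (462 to 616) in the Tomato-negative, 164 (131 to 201) in the cKO and 89.0 CPM (56.4 to 134) in the CT macrophage-like cells, and at 116 CPM (78.5 to 164) in the Folr2 class of cKO. A *C5ar1* UMI was seen in 71.6% of the Tomato-negative, 31.3% of the cKO and 17.3% of the CT macrophage-like cells, and in 35.7%, 16.9% and 7.95% after thinning to 1000 UMIs, which left out 5, 4 and 10 shallower cells. In all germ cells together it had 0, 0 and 1 count. In the Tomato-negative macrophage-like cells the chemokines *Ccl3*, *Ccl4* and *Cxcl2* made up 9.29% of all UMIs, against 1.07% in cKO and 1.13% in CT. In the same 3 sets of cells, 9 genes that tissue dissociation induces summed to 4357, 5182 and 7915 CPM. Their part in the *C5ar1* and C1q levels was not tested.

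In macrophage-like cells 4056 genes had at least 20 counts over the Tomato-negative and CT libraries, of which 6.90% were at least 2-fold higher and 26.2% at least 2-fold lower in the Tomato-negative cells. Against that background *C5ar1* was 6.01-fold of CT (3.89 to 9.70), *C1qa* 0.516 (0.476 to 0.560), *C1qb* 0.616 (0.569 to 0.667), *C1qc* 0.471 (0.422 to 0.525) and *C3ar1* 1.06 (0.782 to 1.44). Of the 5 genes, 1 was past 2-fold up and 1, *C1qc*, past 2-fold down. Genotype, age, tamoxifen treatment, germ cell label and sort all differ between these libraries and cannot be told apart. The CT library is the same one that the cKO library is set against below.

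The comparison of cKO with CT asks whether loss of stem cell factor from Sertoli cells went with another level of complement transcripts in the surrounding cells. In macrophage-like cells, 0 of 5 genes with at least 20 counts differed by 2-fold, where 5.38% of 4852 genes were at least 2-fold higher and 13.6% at least 2-fold lower in cKO. *C1qa* was 1.17-fold of CT (1.10 to 1.24), *C1qb* 1.07 (1.01 to 1.14) and *C1qc* 0.940 (0.865 to 1.02), with all genes at a median log2 ratio of -0.21. *C3ar1* was 0.726-fold of CT (0.537 to 0.987) and *C5ar1* 1.84-fold (1.15 to 3.05). Most cells of the 2 libraries lay in different clusters of the immune cells, which were clustered without integration. Within the cluster that held most CT cells, 15 cKO cells stood at 6857 CPM of *C1qa*, against 5566 CPM in 89 CT cells, and there *C5ar1* was 1.10-fold of CT (0.397 to 2.64).

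The *C5ar1* ratio moved with the processing. With the limit raised to 7500 genes, *C5ar1* was 1.17-fold of CT (0.744 to 1.88), and with called doublets removed 1.33-fold (0.824 to 2.22). *C3ar1* stayed below CT in every alternative run, with ratios between 0.517 and 0.731, but the interval reached 1.30 in the cluster of most CT cells. Taking both macrophage classes together gave 0.934 (0.714 to 1.23) for *C3ar1* and 1.64 (1.05 to 2.66) for *C5ar1*, and 0 of 5 genes past 2-fold, where 9.73% of 6052 genes were higher and 10.8% lower. For *C1qa* the pooled value was 1.21 (1.14 to 1.28).

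**Figure D2:**
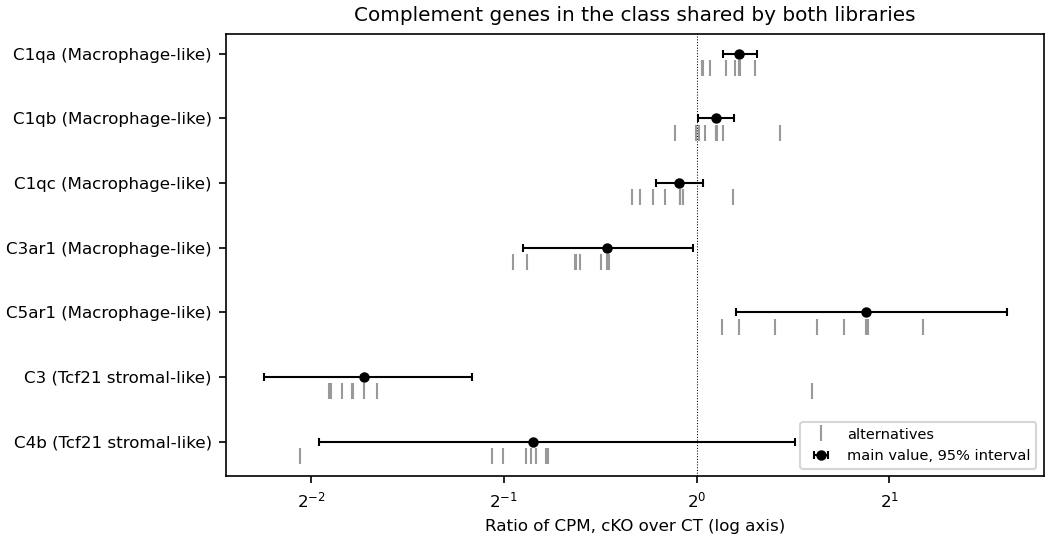
Ratio of the level in cKO over that in CT for the C1q chains and receptors in macrophage-like cells and for *C3* and *C4b* in Tcf21 stromal-like cells, on a log axis, with 1 marked by a dotted line. Points are the values given in the text with 95% intervals for counting error, and grey ticks are the same ratio under each alternative processing. *C3* has the lowest ratio, 0.302, and its tick at 1.51 is the value after thinning to 1000 UMIs per cell.

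*C3*, the central component, and *C4b*, which encodes C4, had most of their somatic counts in the stroma: 250 of 301, 218 of 297 and 35 of 35 *C3* counts and 85 of 98, 80 of 129 and 7 of 12 *C4b* counts in the Tomato-negative, cKO and CT libraries. The class that held them carried *Tcf21* and *Pdgfra* and is called Tcf21 stromal-like. Among classes with at least 30 cells it had the highest level of both genes in the Tomato-negative and CT libraries, but not in cKO, where 33 Leydig-like cells stood higher, at 94.4 CPM of *C3* and 11.3 of *C4b* (3 counts). For *C4b* the lead of the Leydig-like cells did not hold with the limit raised to 7500 genes. There 168 Leydig-like cells of cKO stood at 8.06 CPM (16 counts), against 10.4 in the stroma. The 51 Folr2 macrophage-like cells of cKO also stood at 11.2 CPM of *C4b*, on 3 counts. With the limit of 7500 genes 55 such cells stood at 10.4 CPM, again on 3 counts, level with the stroma. The Tcf21 stromal-like class had 115 Tomato-negative, 1524 cKO and 113 CT cells, with medians of 4725, 5113.5 and 3277 UMIs, and 6, 5 and 6 of its 6 markers in at least 10% of cells. *C3* stood there at 453 CPM (398 to 512) in the Tomato-negative, 28.8 (25.1 to 32.8) in the cKO and 95.1 CPM (66.2 to 132) in the CT library. *C4b* stood at 154 (123 to 190), 10.6 (8.37 to 13.1) and 19.0 CPM (7.65 to 39.2). Macrophage-like cells had 2, 3 and 0 counts of *C3* and 0, 0 and 1 of *C4b*, and the Folr2 class of cKO had 2 and 3. Most counts of C1q and of these later components thus lay in different cells. A near copy of *C4b*, *C4a*, lies at chr17:34809092-34823464, and how reads shared by the copies were counted is not stated, so *C4b* values are uncertain by that.

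Neither gene was spread evenly over the stroma. In the Tomato-negative library 41 of 115 cells had a *C3* UMI, the highest cell had 41, and 10 cells with at least 5 UMIs gave 78% of the 250 counts. In cKO 99 of 1524 cells had one, the highest held 10, and cells with at least 5 gave 34.9% of 218 counts. In CT 15 of 113 cells had one, the highest held 11, and 24 of the 35 counts remained without that cell. *C4b* was seen in 27, 70 and 7 cells of the same 3 sets, with highest cells of 20, 6 and 1 UMIs.

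The *C3* cells of the stroma were more often *C4b* cells than their neighbours were. *C4b* was seen in 43.9% of the cells with *C3* and 12.2% of those without it in the Tomato-negative library, in 11.1% and 4.14% in cKO, and in 26.7% and 3.06% in CT. *Ly6a*, a surface marker of some fibroblasts, stood in the same classes at 241 CPM in the Tomato-negative, 76.9 in the cKO and 557 in the CT library, and *Tcf21* at 502, 683 and 389 CPM. The 9 dissociation genes summed to 16881, 22321 and 23216 CPM. Their part in the *C3* and *C4b* levels was not tested.

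Between genotypes, 11966 genes had at least 20 counts in Tcf21 stromal-like cells, of which 10.8% were at least 2-fold higher and 8.50% at least 2-fold lower in cKO. Of the 7 genes 2 could be counted, and 1 of them, *C3*, was past 2-fold, at 0.302 of CT (0.211 to 0.445). *C4b* was at 0.555 of CT with an interval of 0.257 to 1.42, which spans no change. The *C3* ratio lay between 0.267 and 0.317 in the 7 alternatives that kept all UMIs of a cell. It turned to 1.51 (0.394 to 12.9) when each cell was thinned to 1000 UMIs, where 2 CT cells with a *C3* UMI remained of 108. Thinned, *C3* was seen in 15.8% of the Tomato-negative, 2.20% of the cKO and 1.85% of the CT cells, with 1, 26 and 5 shallower cells left out, against 41 of 115, 99 of 1524 and 15 of 113 cells before thinning, so a lower *C3* in cKO was not detectable at that depth.

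The difference of the Tomato-negative stroma was larger, and it was also seen in the thinned shares above. *C3* was there 15.7-fold of cKO (13.1 to 19.0) and 4.76-fold of CT (3.33 to 6.99). *C4b* was 14.6-fold of cKO (10.6 to 20.05) and 8.09-fold of CT (3.76 to 20.7). Against CT, 4.52% of 6222 genes were at least 2-fold higher and 8.65% at least 2-fold lower in the Tomato-negative cells, and both *C3* and *C4b* were among the higher ones. As for the macrophages, the libraries also differ in genotype, age, tamoxifen treatment, label and sort, which cannot be told apart.

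Among the other somatic classes of cKO with at least 30 cells, the Leydig-like cells had the highest *C3* level. The 33 cells held 25 *C3* counts, spread over 9 cells (27.3%), which is 94.4 CPM (61.1 to 139), above the 28.8 CPM of the cKO stroma, at a median depth of 9368 UMIs. With the limit raised to 7500 genes, 168 such cells held 94 counts, 47.3 CPM (38.3 to 57.9), against 29.3 CPM in the stroma. The 29 Leydig-like cells of the Tomato-negative library had 0 counts, which allows up to 62.5 CPM at 3 counts. In the Sertoli-like cells of the Tomato-negative library 30 counts lay in 3 of 358 cells. The 10 cKO cells in that cluster had 33 counts in 5 cells, 587 CPM, but their Sertoli markers summed to 3167 CPM, against 20892 CPM in the 358 cells. With the limit of 7500 genes, 27 cKO cells named Sertoli-like held 86 *C3* (324 CPM) and 22 *C4b* counts (83.0 CPM). Without a limit, 17 unnamed somatic cells of cKO held 86 and 22 counts, at 564 and 144 CPM. These counts fall outside the Tcf21 stromal-like class and so outside its *C3* and *C4b* ratios. The myoid-like cells, which wrap the tubule, had 18 *C3* counts in 2 of 164 Tomato-negative cells, 14 in 10 of 2066 cKO cells and 0 in 630 CT cells. Vascular smooth muscle-like cells had 0 counts of *C3* in all 3 libraries, and so did the 64 endothelial-like cells of the Tomato-negative library.

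*C4b* in myoid-like cells was low, at 4.12 CPM in the Tomato-negative, 2.46 in the cKO and 0.311 CPM in the CT library, with 5, 28 and 1 counts. In that class 5.17% of 13628 genes were at least 2-fold higher and 7.45% at least 2-fold lower in cKO. Of 3 genes that could be counted, *C4b* was higher, at 7.89 of CT (1.30 to 323) on 1 CT count, and *C1qa* and *C1qb* were lower, at 0.0782 (0.0227 to 0.219) and 0.423 (0.159 to 1.19). None of these ratios is firm. With the limit raised to 7500 genes, *C4b* stood at 2.41 CPM in cKO and 1.22 in CT myoid-like cells, less than 2-fold apart, *C1qa* at 20.4 and 28.2 CPM and *C1qb* at 13.4 and 19.6 CPM. Of 6320 genes in vascular smooth muscle-like cells, 9.86% were higher and 4.67% lower, and 0 of the 7 genes had the counts to be included.

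**Figure D3:**
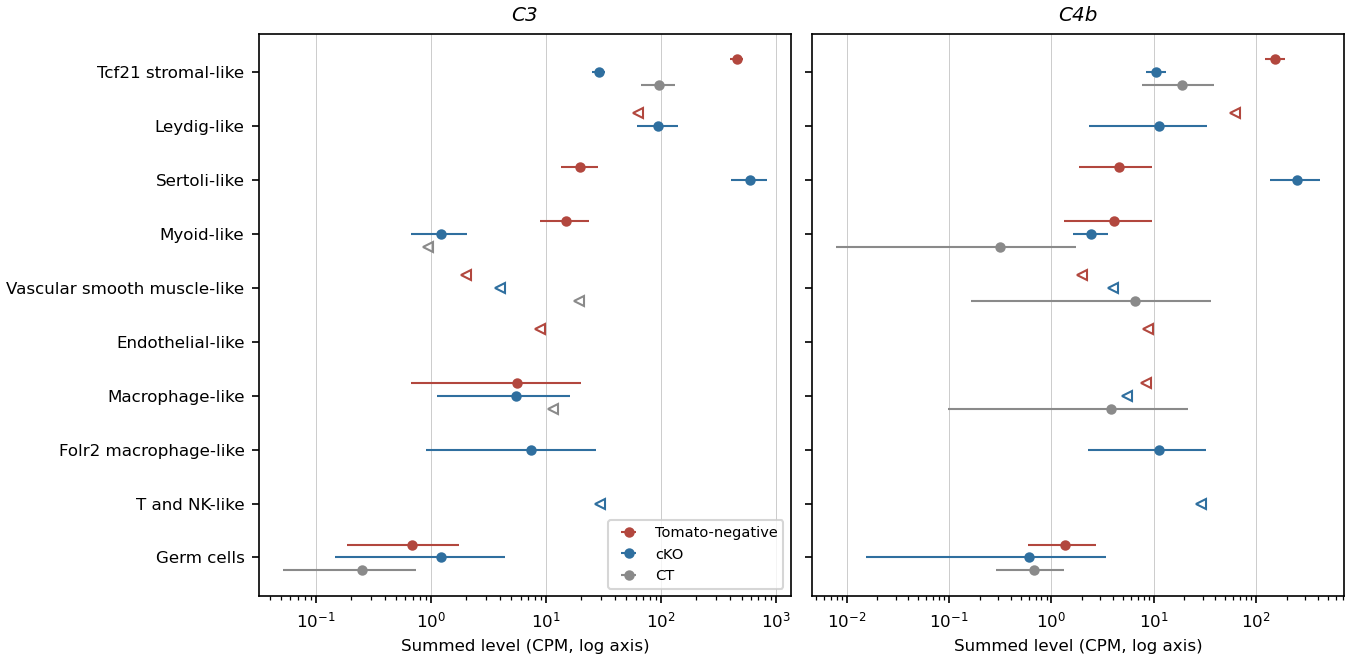
Levels of *C3* (left) and *C4b* (right) by class and library in CPM on log axes, for classes with at least 10 cells. Points are levels with exact 95% Poisson intervals, and open triangles mark classes with 0 counts, drawn at the level of 3 counts. The Tcf21 stromal-like cells of the Tomato-negative library lie far to the right, at 453 CPM of *C3* and 154 CPM of *C4b*, and the point for cKO in the Sertoli-like row rests on 10 cells.

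In germ cells within the limit of 3500 genes, *C3* and *C4b* were close to 0. All germ cells together held 4 *C3* counts in the Tomato-negative, 2 in the cKO and 3 in the CT library, and 8, 1 and 8 *C4b* counts. The limit itself hid a larger signal. Of all *C4b* counts, 6.98% of the Tomato-negative, 76.0% of the cKO and 3.91% of the CT ones lay in cells that passed, while 73.3% to 95.1% of the counts of the C1q chains and receptors did.

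When the upper limit was dropped, *C4b* was found in meiotic cells. Spermatocyte-like cells had it at 12.3 CPM (11.7 to 13.03) in the Tomato-negative library, with 1257 counts in 1317 cells, at 8.25 CPM (3.77 to 15.7) in cKO, with 9 counts in 28 cells, and at 8.76 CPM (7.97 to 9.61) in CT, with 453 counts in 1362 cells. A *C4b* UMI was seen in 58.7%, 25% and 24.96% of these cells, whose median depths were 81322, 49131.5 and 42686 UMIs. The counts were spread thinly, over 773 Tomato-negative cells with at most 6 in a cell. Spermatid-like cells had 2.96 (2.47 to 3.51), 4.73 (0.976 to 13.8) and 3.26 CPM (2.29 to 4.49).

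Before meiosis the level was lower. Undifferentiated spermatogonia-like cells stood at 0.227 CPM (0.0275 to 0.821) in the Tomato-negative, 0.158 (0.0431 to 0.405) in the cKO and 0.757 CPM (0.156 to 2.21) in the CT library. Differentiating spermatogonia-like cells had 21 counts in 2017 Tomato-negative cells, 0 in 999 cKO cells and 4 in 2730 CT cells. The spermatocyte intervals lay above those of both spermatogonial stages in all 3 libraries. The near copy *C4a* was lower in spermatocyte-like than in differentiating spermatogonia-like cells in the Tomato-negative (1.05 and 2.50 CPM) and CT (1.14 and 1.57 CPM) libraries, but in cKO it stood at 2.75 CPM, on 3 counts, and 0.810 CPM.

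The B chain made up a larger share of the C1q counts in spermatid-like than in macrophage-like cells. Without the limit, spermatid-like cells of the Tomato-negative library held 256 *C1qb* counts, 5.87 CPM (5.17 to 6.63), in 142 of 803 cells, but 16 of *C1qa* and 12 of *C1qc*. In cKO 19 such cells held 7 *C1qb* and 0 of each other chain, and in CT 375 cells held 130, 68 and 47 counts of *C1qb*, *C1qa* and *C1qc*. *C1qa* and *C1qc* were also highest in spermatid-like cells among the named germ cell classes of the Tomato-negative library, at 0.367 and 0.275 CPM. The same held in CT, at 5.99 and 4.14 CPM. The CT *C1qa* counts lay in 12 cells, with 18 in the highest, and the *C1qb* counts in 62. In the cells within the limit, *C1qb* was 41 of 43 C1q counts in Tomato-negative spermatid-like cells, or 95.3% (84.2 to 99.4), against the 42.3% of macrophage-like cells in the same library. It was 4 of 4 in cKO and 45 of 83 in CT, or 54.2% (42.9 to 65.2), against 37.0% and 37.3% in their macrophage-like cells. In the remaining germ cells of CT it was 43.4% (35.4 to 51.7), an interval that includes the macrophage share. The Tomato-negative spermatid-like cells thus did not have the chain proportions of the macrophage-like cells of their library. Between cKO and CT, all germ cells within the limit gave 3 genes that could be counted, of which *C1qa* (0.346 of CT, 0.0922 to 0.919) and *C1qc* (0.363, 0.0425 to 1.40) were at least 2-fold lower, where 13.2% of 15173 genes were lower and 13.5% higher. The germ cells differed in make-up, with 154 differentiating spermatogonia-like and 34 spermatocyte-like cells among 457 in cKO, against 1370 and 818 among 2706 in CT, and 9 of 9 dissociation genes were at least 2-fold higher in cKO germ cells (median log2 ratio 2.42, beside -0.06 over all genes). Their part in these ratios was not tested.

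**Figure D4:**
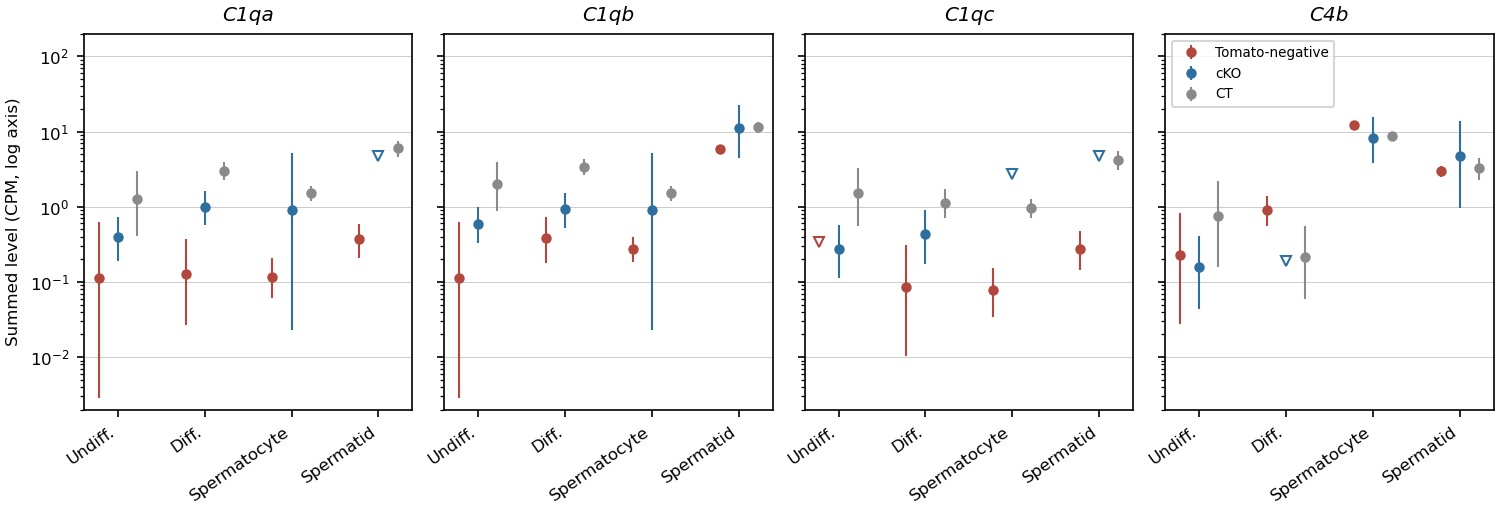
Levels of *C1qa*, *C1qb*, *C1qc* and *C4b* in 4 germ cell classes (undifferentiated and differentiating spermatogonia-like, spermatocyte-like and spermatid-like) with no upper limit of genes, in CPM on a log axis. Points are libraries with exact 95% Poisson intervals, and open triangles mark 0 counts, drawn at the level of 3 counts. *C4b* is highest in spermatocyte-like cells, 12.3 CPM in the Tomato-negative library, and *C1qb* in spermatid-like cells. In the Tomato-negative and CT libraries *C1qa* and *C1qc* are highest in spermatid-like cells too.

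Of the rest of the cascade, 41 of 43 listed genes were found in the tables. Those named in this paragraph stood in the stroma, but the list was not confined to it or to macrophage-like cells. Over cKO and CT, 14 of the 41 had at least 20 counts in germ cells, among them 6 of 6 membrane inhibitors. In myoid-like cells 17 of them did. The partners of C1q were in the stroma and not in the macrophages. *C1s1*, a protease of the C1 complex, stood in Tcf21 stromal-like cells at 391 CPM in the Tomato-negative, 277 in the cKO and 307 in the CT library, and *C1ra*, its activator, at 168, 124 and 217 CPM. In macrophage-like cells they had 0, 2 and 1 and 0, 0 and 0 counts. *C2*, which is cut beside C4, stood in the stroma at 255, 236 and 163 CPM. *Serping1*, the inhibitor of C1r and C1s, stood at 1461, 960 and 1233 CPM. *C7*, a piece of the lytic pore, stood at 186, 73.7 and 174 CPM.

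The Folr2 macrophage-like cells of cKO carried several of the other genes at higher levels than the macrophage-like cells did. *Colec12*, a scavenger collectin, had 75 counts in the 51 cells, against 2, 0 and 1 in the Tomato-negative, cKO and CT macrophage-like cells, and properdin (*Cfp*) 25, against 9, 7 and 3. *Vsig4*, a receptor for C3 fragments, had 10 counts and the lectin *Fcna* 15, against 0 in each set of macrophage-like cells. *Itgam*, a chain of complement receptor 3, stood at 123 CPM, against 72.4, 79.1 and 19.3 CPM.

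Between cKO and CT the other genes were counted by the same rule. In macrophage-like cells 3 of the 41 had enough counts, and 1, *Itgam*, was higher in cKO (4.09-fold of CT, 1.62 to 13.2) and 0 lower, where 5.38% and 13.6% of all genes were. The median log2 ratio of these 3 was 0.33, beside -0.21 over all genes. In Tcf21 stromal-like cells 18 had enough counts, with 4 higher (*C1rb*, *C1s2*, *Masp1* and *Clu*) and 4 lower (*C7*, *Vtn*, *Cd55* and *Cd46*), where 10.8% and 8.50% of all genes were, and a median of -0.0072 beside -0.11. Of the lower ones, *C7* was 0.424 of CT (0.327 to 0.558) and *Vtn*, vitronectin, 0.246 (0.143 to 0.450). *C1rb* and *C1s2*, near copies of *C1ra* and *C1s1*, had 165 and 137 counts in cKO and 0 and 0 in CT. How reads of such copies were assigned is not stated. The CT table also lists fewer genes than the cKO one (29872 against 33850), so these 0 values can stand for unlisted genes. Both genes were counted among the 4 higher ones here and among the higher ones in myoid-like cells, and neither ratio is firm. In myoid-like cells 17 had enough counts, 6 higher and 1 lower, where 5.17% and 7.45% of all genes were, and in vascular smooth muscle-like cells 8, with 2 higher (*Colec11* and *Vtn*) and 0 lower, where 9.86% and 4.67% were.

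**Figure D5:**
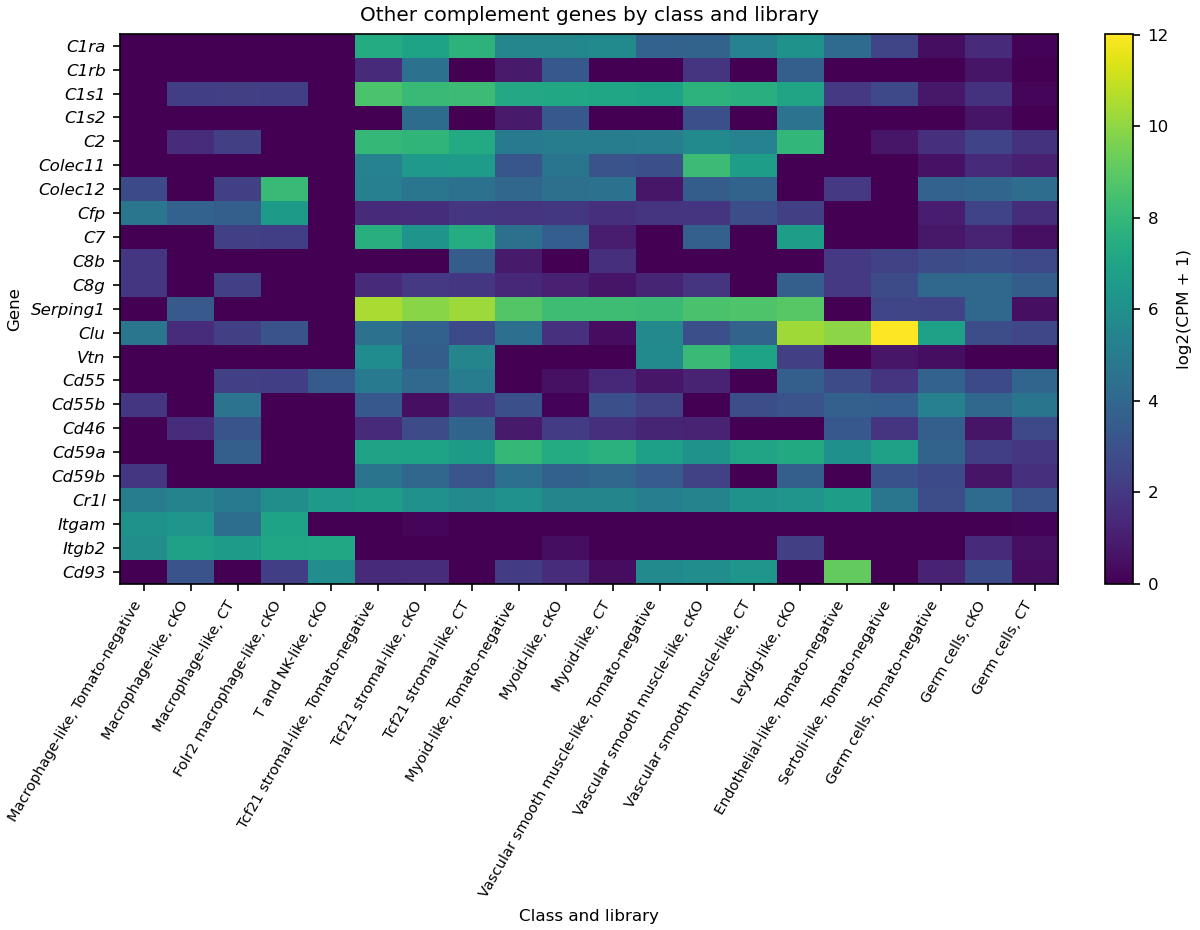
Map of 23 other complement genes with at least 100 counts, by class and library for sets with at least 30 cells, coloured by log2(CPM + 1). Rows are genes in order of their role and columns are classes with the Tomato-negative, cKO and CT libraries side by side. *C1ra*, *C1s1*, *C2*, *C7* and *Serping1* are bright in the Tcf21 stromal-like columns and dark in the macrophage-like ones.

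The genes whose levels were most like those of the 7 were taken by Pearson's r of log2(CPM + 10) over 32 sets of cells (classes in libraries with at least 30 cells) among 15322 genes. The sets share libraries and cell types, so r is a description only. *C1qa* was most like *C1qc* (0.991), *Cybb*, *Ctss*, *C1qb* and *Csf1r*, and *C1qc* most like *Csf1r* (0.992), the receptor that keeps macrophages alive. *C3ar1* was most like *Cd86* (0.993) and *C5ar1* most like *Cd300ld* (0.991), with *Ccl3* among its 5. *C3* was most like *Ifi205* (0.933), with *C4b* (0.902), *C7* (0.901) and *Mmp19* also among its 5, and *C4b* was most like *C3*.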

How the data were processed

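The authors deposited raw UMI counts of each gene in each cell, made from Chromium 3′ v2 libraries with Cell Ranger 2.1.1 on GRCm38. The Tomato-negative cells were the 7626 cells of the merged table whose barcodes carry the first ending, since its other cells repeat 6264 CT and 149 cKO barcodes. The sources used here do not say how the 149 were picked. The authors worked in Seurat 3.1. Here the cells were clustered in Seurat 5.3.0 (R 4.3.3) on genes seen in at least 3 of the pooled cells. The settings were 2000 variable genes, anchor integration of the 3 libraries, 20 components and resolution 0.5. Germ cells (25 components, resolution 0.3), somatic cells (10, 0.3) and immune cells (10, 0.6) were then clustered again, the immune cells without integration. Each cluster was named for the class of highest relative marker score among those with at least 3 markers seen in at least 10% of its cells. It stayed unnamed if no class had them, if its 10 leading genes held more markers of another class, or if 3 times its depth was still under its libraries' medians with no marker of its own among those genes. Scrublet (scanpy 1.11.5, expected rate 0.06) called 329 Tomato-negative, 335 cKO and 214 CT doublets, which were left in.

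Counts were summed per class and library and given as CPM, with Python 3.11.15, numpy 2.4.6, scipy 1.17.1 and matplotlib 3.10.9. With 1 library per group no test was run. Ratios were taken where a class had 30 or more cells in each library, and a gene was counted as higher or lower at 2-fold if it had at least 20 counts over both. The tables list 33447 genes for Tomato-negative, 33850 for cKO and 29872 for CT. The rarest gene listed for CT occurs in 3 cells, and that for cKO in 1. A count of 0 can therefore stand for an unlisted gene, also in the shares of all genes, and this was not tested. Median log2 ratios were taken with 0.5 added to each count. A count of 0 was bounded at 3 counts. Named genes were the 7 genes, the other complement genes that lead in the same classes, and for each of the 7 the 5 genes with the highest correlation among genes with at least 100 counts. 1 further gene of the list is not reported here. The genes, lists and markers were chosen with earlier results of these data known. On simulated counts, intervals covered the true ratio for 96.6% of the 4652 genes left unchanged among 4852 in macrophage-like cells. In Tcf21 stromal-like cells they did for 97.1% of 11766 among 11966. For genes set to ratios of 0.25, 0.5, 2 or 4 the coverage was 93.75% to 96.55% in macrophage-like and 97.73% to 100% in Tcf21 stromal-like cells. Alternatives were other limits of genes per cell, doublets removed, no integration, double resolution, complement genes in the clustering, thinning and subtraction of the germ cell level.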

Additional observations from a re-analysis of the deposited data

Results flagged for a closer look

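The cells above 3500 detected genes, which the comparisons leave out, held *C4b* and *C3* above the level of the germ cells that were kept. In the Tomato-negative library *C4b* stood in these 4075 cells at 7.88 CPM (7.47 to 8.30), against 1.37 CPM in the germ cells kept, and germ cell classes held 99.4% of the 1410 counts, spermatocyte-like cells 89.1%. In the CT library *C4b* stood at 6.61 CPM (6.03 to 7.22) in 2487 such cells, against 0.671 CPM, with 99.8% of 491 counts in germ cell classes. *C3* in the same CT cells stood at 1.48 CPM (1.22 to 1.78), against 0.252 CPM, with 95.5% of 110 counts in germ cell classes.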

How the results depend on the processing

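No paired analysis was possible because each group is 1 library. Ratios are cKO over CT. With a limit of 7500 genes *C1qa* was 1.02, *C1qc* 0.856 and *C3ar1* 0.517, and with doublets removed *C1qa* was 1.02, *C1qb* 0.925 and *C1qc* 0.816. Thinned to 1000 UMIs, *C1qa* was 1.05, *C1qb* 0.998, *C1qc* 0.794 and *C4b* 0.240, and *C3* turned to 1.51. In the macrophage-like cluster of most CT cells alone, an alternative chosen after seeing the data, *C1qb* was 1.35, *C1qc* 1.14 and *C5ar1* 1.10. Without integration, at double resolution, with complement genes in the clustering and after subtracting the germ cell level, 7 of 7 ratios stayed within the interval of the value reported. For macrophage-like cells the first and last of these runs could hardly move a ratio. Immune cells were clustered without integration in the main run too, and the germ cell levels subtracted were small beside theirs. Adding the shallow unnamed cluster, also chosen after seeing the data, left 5 of 5 ratios within it. Without an upper limit too few CT macrophage-like cells were named for a ratio, and *C3* (0.280) and *C4b* (0.562) were the ratios left. Of 21 levels, 9 moved beyond their interval with the limit of 7500 genes, 8 without a limit, 4 without doublets and 11 when thinned. Depth limits the receptors, *C3* and *C4b* most, with as few as 23 *C5ar1* and 7 *C4b* counts in CT.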

Other observations

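Spermatogonia-like cells carried *C3* at a low level when no upper limit of genes was set. Undifferentiated spermatogonia-like cells held 25 *C3* counts in 462 Tomato-negative cells, 31 in 1571 cKO cells and 7 in 373 CT cells, which is 2.84 CPM (1.84 to 4.19), 1.23 (0.834 to 1.74) and 1.77 CPM (0.710 to 3.64). Differentiating spermatogonia-like cells stood at 1.42 (0.978 to 1.995), 2.62 (1.89 to 3.54) and 1.79 CPM (1.23 to 2.51). Spermatocyte-like cells had 79 counts in the Tomato-negative, 0 in the cKO and 59 in the CT library, or 0.775, 0 and 1.14 CPM. All of these levels were under the 28.8 CPM of the cKO stroma.

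*C3ar1* and *C5ar1* were not always found in the same macrophages. In Tomato-negative macrophage-like cells *C5ar1* was seen in 77.9% of cells with *C3ar1* and 65.2% of those without, in cKO in 37.9% and 27.6%, and in CT in 17.3% and 17.4%. In the Folr2 macrophage-like cells of cKO the shares were 47.6% and 11.1%. A cluster of 64 cells that was first drawn among the myoid-like cells, 4 Tomato-negative, 56 cKO and 4 CT, had *C7*, *C3* and *C4b* among its 10 leading genes.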
